A study of Mus musculus with 13 samples.

Results

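The genes described are 48 interferon-stimulated and RNA-sensing genes, taken by name from a written list and not by their values, and grouped here by role. The files hold 47 of them among 20325 genes, and Ifi27 was not analysed here. All 47 passed the filter on low counts and were tested among 14324 genes. Expression was measured by single-end sequencing of total RNA from pre-iPSCs, cells made from mouse embryonic fibroblasts that stalled on the way to pluripotency. Wild-type (WT) pre-iPSCs and pre-iPSCs with a knockout (KO) of Kdm3b, a histone H3 lysine 9 demethylase, were sampled at the start, after 2 days and after 10 days of treatment with AA+2i, as 2 libraries (A and B) in each of the 6 groups. AA is ascorbic acid at 50 µg/mL, and 2i is the GSK3 inhibitor CHIR-99021 with the MEK inhibitor PD-0325901. All cultures shared ESC medium with 15% serum and leukaemia inhibitory factor, and those kept past day 4 were split then. The day 0 libraries are titled DMSO but carry the treatment label AA+2i, and were read as the untreated start. A single library of V6.5 wild-type embryonic stem cells (ESCs) was also measured, with the label AA+2i and time point 0hr. How the knockout was made, and from how many clones, is not given in the sources used here.

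Cells sense foreign or misplaced RNA through helicases such as MDA5 (Ifih1) and RIG-I (Ddx58), which signal through the adaptor Mavs to IRF3 and IRF7 and so to interferon genes. Secreted interferon binds its receptor and activates a complex that holds STAT2 and IRF9 and switches on the interferon-stimulated genes through a promoter element rich in GAAA blocks. Their products bind or cut RNA, stop translation, tag proteins with ISG15 and block viral entry. Mouse embryonic stem cells are known for a weak response to interferon and to double-stranded RNA compared with fibroblasts.

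The element can be seen in the sequence before the start of several members. The core searched was GAAANNGAAA, a pair of GAAA blocks set apart by any pair of bases, on both strands of RefSeq promoter windows (GRCm38.p6, 250 bases before to 50 after each transcript start). Overlapping matches were counted separately. Promoters were matched for 37 of the 47 members, by symbol or transcript accession. The core stood in the promoter of 17 members, or 45.9% (exact 95% interval 29.5 to 63.1%), against 634 of 16121 genes of the files with a promoter, or 3.93%. The interval treats promoters as independent, which those of paralogs such as Oas1a and Oas1g are not. Of those 17, 9 held more than 1 match. The members below were picked from those that hold the core. Isg15, Ifit1 and Rsad2 were among the risers in WT, and Gbp2, Oas1a and Oas1g were low in KO from day 0. Other risers, such as Oasl2, Irf7 and Trim25, were searched and lack the core. So do Samd9l, Uba7 and Xaf1, which were also low in KO from day 0. Each line gives the bases up to the start, read along the gene, with the core matches in capitals. Where the match lies on the other strand the capitals read as its reverse complement, with TTTC blocks.
Isg15, chr4:156200819-156200938, reverse strand: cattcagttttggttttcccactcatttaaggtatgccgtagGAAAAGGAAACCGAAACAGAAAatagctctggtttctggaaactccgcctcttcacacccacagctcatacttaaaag
Ifit1, chr19:34640769-34640888, forward strand: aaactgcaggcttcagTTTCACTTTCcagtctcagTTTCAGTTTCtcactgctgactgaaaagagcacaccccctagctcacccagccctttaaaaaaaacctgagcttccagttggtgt
Rsad2, chr12:26456453-26456582, reverse strand: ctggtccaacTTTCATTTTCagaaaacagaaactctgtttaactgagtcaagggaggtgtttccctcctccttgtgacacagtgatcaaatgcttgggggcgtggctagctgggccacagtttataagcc
Gbp2, chr3:142620543-142620662, forward strand: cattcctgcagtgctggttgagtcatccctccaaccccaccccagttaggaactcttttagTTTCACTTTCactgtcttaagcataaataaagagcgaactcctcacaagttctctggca
Oas1a, chr5:120907526-120907645, reverse strand: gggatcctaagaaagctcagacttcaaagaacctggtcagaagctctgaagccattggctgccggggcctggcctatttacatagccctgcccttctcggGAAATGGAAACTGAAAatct
Oas1g, chr5:120887614-120887733, reverse strand: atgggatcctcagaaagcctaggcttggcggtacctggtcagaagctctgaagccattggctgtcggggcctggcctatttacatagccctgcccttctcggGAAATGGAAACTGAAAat

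In Isg15 3 matches overlap in a row of GAAA blocks, and in Oas1a and its paralog Oas1g the same block lies close to the start. The core stood in 12 of 25 matched members (48.0%) that were higher in WT at day 10 than at day 0, and in 5 of 11 (45.5%) of those not called. Bst2 and Ifitm3, neither of which was called in any comparison, hold the core as well. Another motif, TTCNNNGAA, bound by STAT dimers, stood in 18.9% of member promoters and 9.05% of all. A match is a string of letters in the reference, and binding was not measured.

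**Figure D1:**
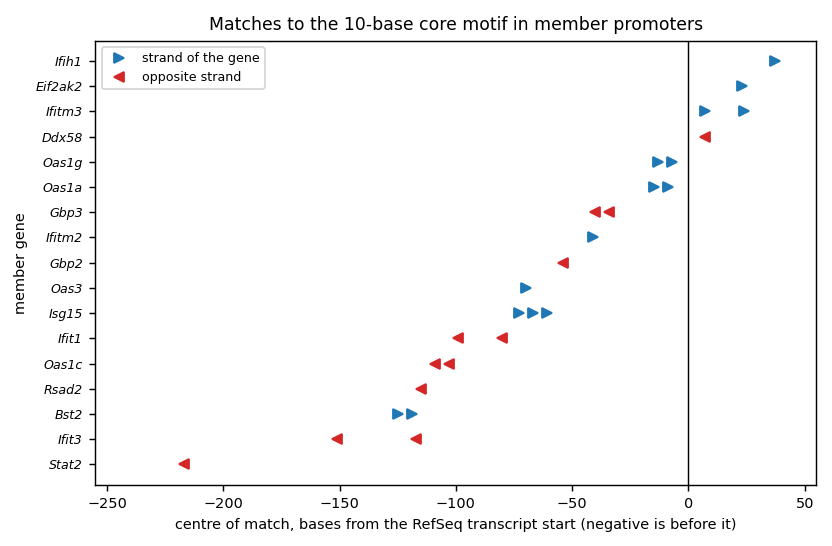
Positions of the core motif in member promoters, with bases from the transcript start on the x axis and 1 row for each of the 17 genes. Triangles mark single matches and point along the strand of the match; 20 of the 27 matches lie within 150 bases before the start.

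The libraries held 14891294 to 26430050 expected counts. Kdm3b lay at 148 to 249 CPM (counts scaled to a common depth, on library sizes scaled by TMM) in WT and at 19.0 to 65.1 CPM in KO, below every WT library. Libraries A and B of days 0 and 2 stood apart in the same way in both genotypes: their differences over all tested genes correlated at 0.872 to 0.915 in the 6 pairs of those 4 groups, and at -0.112 to 0.032 in the 9 pairs with a day 10 group. The set of libraries and the 10 days of treatment cannot be told apart, and no untreated day 10 culture was analysed. Whether A and B were separate cultures is not stated, so p-values measure the spread between these libraries. In bulk RNA, fewer expressing cells and less RNA per cell cannot be told apart. Markers of other cells moved too. Of 10 immune markers, Tyrobp was at 0 in all 13 libraries and Ptprc was at 0 in every day 10 library, while the summed level of the list was 47.5 to 56.9 TPM (abundance scaled for transcript length and depth) in WT at day 10 against 11.8 to 30.4 in WT at day 0 and 17.9 to 22.6 in KO at day 10. Of the 5 immune markers tested, 3 were higher in WT at day 10 than at day 0 and 3 were lower in KO at day 10; Csf1r had a mean of 6.53 CPM and Cd3e 3.99 CPM in WT at day 10. The 10 fibroblast markers summed to 40.8 to 49.9 TPM in WT at day 10, 6.08 to 11 in WT at day 0 and 3.42 to 4.75 in KO at day 10, and to 100 TPM in the ESC library; 6 of 9 tested were higher in WT at day 10 than at day 0 and 6 were lower in KO at day 10. Of 5 endothelial markers 4 were tested; Vwf was higher in WT at day 10 than at day 0, at a mean of 47.7 CPM, Tek was lower and the other 2 were not called. In WT at day 10 the list summed to 14.1 to 16.4 TPM, against 10.7 to 18.9 in WT at day 0 and 10.4 to 12.5 in KO at day 10. Of 8 naive pluripotency genes, 6 were higher in WT at day 10 than at day 0, 1 (Pou5f1) was lower, and 6 were lower in KO at day 10. Their sums overlapped between days in WT, at 5410 and 13900 TPM on day 0 and 9510 and 10800 on day 10, and were 4310 and 5030 in KO at day 10. Nanog was at 285 and 319.8 CPM in WT at day 10, 30.9 and 32.5 in KO at day 10 and 304.7 in the ESC library. The part of these genes in the results below was not tested.

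Of the 47 members, 34 rose in WT by day 10 and 12 rose in KO. A gene was called when its Benjamini-Hochberg false discovery rate (FDR) in edgeR's quasi-likelihood test was under 0.05. In WT, 34 members were higher at day 10 than at day 0 and 1, Irf3, was lower, where 21.0% of all tested genes were higher and 13.1% lower. The median log2 fold change of the members was 1.90, against -0.025 for all genes. Ifit1, Ifit3, Ifi44, Usp18, Mx2 and Oasl1 had 14 pooled counts or fewer in every pre-iPSC group but WT day 10. They passed the low-count filter through WT day 10, so their calls in that group, here and against KO, are not independent of the filter. With no low-count filter the count for WT day 10 against day 0 was 33 higher and 1 lower, beside 4821 of all genes called. Against day 2, 33 were higher and 1 lower (18.3% and 11.2% of all genes). Without library A of WT day 10 this count was 21 higher and 1 lower. By day 2 only Gbp2, Irf7 and Zbp1 were higher than at day 0 and 0 were lower (3.32% and 1.98% of all genes). At this step 21 members had an unadjusted p under 0.05, and here and below such counts were not made over all genes. DESeq2 called 5 higher and 2 lower at that step, a fit to the 4 libraries alone called 0, and leaving out any 1 of these 4 libraries left 0 or 1. The letters A and B go together over days 0 and 2, and with the letter as a block for those days the count was 16 higher and 6 lower. Calls over all genes at this step went from 759 in the main fit to 1455 with DESeq2 and 4318 with this block.

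In KO, 12 members were higher at day 10 than at day 0 and 1, Oas1c, was lower (9.93% and 5.19% of all genes), with a median log2 fold change of 0.506. Of these 12, 11 were also among the 34 that rose in WT. They made up 91.7% of the KO list and 32.4% of the WT list, and the other was Samd9l. The WT list held 72.3% of all members, so a large overlap follows in part from its size. The 13 calls became 6 in a fit to the 4 libraries alone, 8 once KO day 0 A was left out, 7 once KO day 10 A was and 8 once KO day 10 B was. Between days 0 and 2, 4 were higher (Cmpk2, Gbp2, Rsad2, Zbp1) and 3 lower (Oas1a, Oas1c, Oas2), beside 4.02% and 2.37% of all genes. With only the 4 libraries compared that count was 0, and it lay between 1 and 4 when any 1 of them or of the WT day 10 libraries was left out. Between days 2 and 10, 8 were higher and 0 lower (2.49% and 0.607%), against 0 in a fit to the 4 libraries alone and 2 or 3 without any 1 of them; 19 had an unadjusted p under 0.05, and DESeq2 called 14 higher and 2 lower. With the block for days 0 and 2, KO had 7 members higher and 10 lower for day 2 against day 0, beside 4225 of all genes called. For day 10 it had 20 and 5 against day 0 and 21 and 3 against day 2, beside 7099 and 4895. In that fit the levels of days 0 and 2 are those of library A, while those of day 10 are means of A and B. Its counts for day 10 against an earlier day thus do not compare group means. Over all genes the main fit called 444 for KO day 10 against day 2, and DESeq2 called 1341.

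The genotypes already differed at day 0, where 16 members were lower in KO and 0 higher (5.59% and 2.69% of all genes). At day 2, 19 were lower and 0 higher (6.16% and 4.29%). DESeq2 also called 0 higher on these days, and 19 and 21 lower. With the block for days 0 and 2, day 2 had 27 lower and 2 higher. Over all genes DESeq2 called 1792 at day 0 and 2193 at day 2, and the block called 5252 at day 2. The main fit called 1187 at day 0 and 1498 at day 2. At day 10, 37 were lower and 1, Irf3, was higher (19.9% and 12.4%), with a median log2 fold change of -2.95 against -0.016 for all genes. All 16 members of the day 0 list were in the day 10 list, of which they made up 43.2%. The day 10 list held 78.7% of all members, so a large overlap follows in part from its size. On all 3 days 14 members were lower in KO. Of these 14, Parp9 at day 0 and Trim25 at day 2 each lost the call in 8 of the 12 cases with 1 library left out. The 3 comparisons share no library but come from 1 fit, and libraries A and B of days 0 and 2 stood apart in the same way. The 3 days are thus not independent of each other. The day 0 count was 9 once KO day 0 A was left out and also 9 once WT day 0 B was. In fits to the 4 libraries compared, 3 members stayed called at day 0 (Gbp2, Samd9l, Zbp1) and 3 at day 2 (Gbp2, Parp14, Samd9l). The number of members with an unadjusted p under 0.05 was 19 at day 0, 23 at day 2 and 41 at day 10, not counted over all genes.

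**Figure D2:**
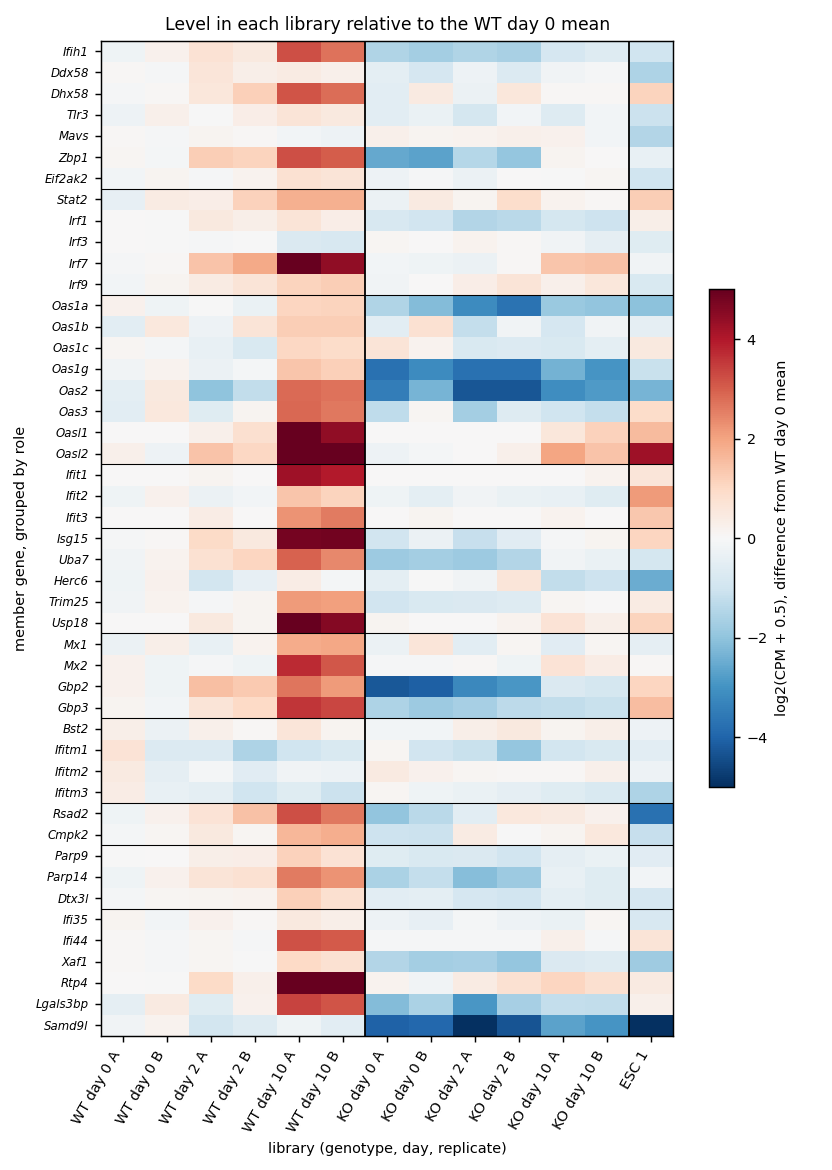
Level of each of the 47 members (rows, grouped by role) in each of the 13 libraries (columns), as the difference in log2(CPM + 0.5) from the mean of the 2 WT day 0 libraries; the colour scale ends at 5 in both directions. WT day 10 is the reddest pair of columns, the KO columns are blue for Gbp2, Oas1g, Oas2 and Samd9l at every day, and the 4 membrane genes stay pale.

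Among the 7 RNA sensors and their adaptor, Ifih1, Dhx58, Zbp1 and Eif2ak2 rose in WT at day 10, while the RIG-I gene Ddx58, the endosomal RNA receptor gene Tlr3 and Mavs did not pass the test. Ifih1, which encodes MDA5, a sensor of long double-stranded RNA, lay in WT at 1.32 and 1.98 CPM on day 0, 2.96 and 2.45 on day 2, then 19.1 and 13.5 on day 10. In KO, at the same days, it lay at 0.243 and 0.148, 0.257 and 0.199, and 0.682 and 0.844 CPM. Every WT library was above every KO library, and the gene was lower in KO at day 0 (log2 fold change -3.02, FDR = 0.00267, SE 0.41) and at day 10 (-4.41, FDR = 0.000101, SE 0.35). Within each genotype it rose by day 10, by 3.31 in WT and 1.93 in KO on the log2 scale; the KO call was lost without any 1 of its 4 libraries. Zbp1, a sensor of Z-form nucleic acids, went in WT through 4.55 and 3.91 CPM on day 0, 10.6 and 9.62 on day 2, then 43.5 and 37.7 on day 10. The KO libraries held 0.292 and 0.247, 1.24 and 0.728, and 4.71 and 4.22 CPM. Day 10 of KO thus reached the level of day 0 of WT, and the rise within KO (log2 fold change 4.02, FDR = 0.000116, SE 0.32) was not called different from that in WT (3.26, FDR = 5.39e-05, SE 0.25).

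Dhx58, which encodes LGP2, a helper of MDA5, showed another pattern. Its WT levels were 0.998 and 1.09 CPM on day 0, 1.77 and 3.04 on day 2, then 12.99 and 10.2 on day 10. Its KO levels were 0.584 and 1.63, 0.772 and 1.79, and 1.12 and 1.08 CPM, so that the genotypes overlapped at day 0 and lay far apart at day 10 (log2 fold change of KO against WT -3.39, FDR = 0.00172, SE 0.53). Eif2ak2 encodes PKR, a kinase that halts translation on double-stranded RNA. It lay at 41.8 and 51.8 CPM on day 0, 44.2 and 52.5 on day 2, then 78.5 and 73.4 on day 10 in WT. KO libraries were at 39 and 44.8, 38.3 and 47.8, and 46.4 and 49.7 CPM. Its rise in WT (0.70, FDR = 0.0166, SE 0.18) lost its call once WT day 0 A or either WT day 10 library was left out, and its lower level in KO at day 10 (-0.66, FDR = 0.0228, SE 0.18) without any 1 of the 4 day 10 libraries or without WT day 2 B.

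The other 3 genes of this role were not called between days in either genotype. Ddx58 stood at 66.5 to 104 CPM in the 6 WT libraries and 38.3 to 66.4 in KO, and was called only at day 2, lower in KO (log2 fold change -0.93, FDR = 0.0211, SE 0.20); that call was lost without KO day 2 B or WT day 2 A. Mavs, the mitochondrial adaptor gene of MDA5 and RIG-I, lay between 54.7 and 78.6 CPM in all 12 pre-iPSC libraries, with a KO against WT log2 difference of 0.27, FDR = 0.24, SE 0.16 at day 10. Tlr3 stayed under 4 CPM in every library.

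Of the 5 transcription factors, 4 rose in WT. Irf7, the inducer of interferon genes that is itself interferon-inducible, rose in steps in WT, from 0.439 and 0.544 CPM on day 0, 2.17 and 3.22 on day 2, then 30.5 and 20.6 on day 10. The KO values were 0.3895 and 0.345, 0.309 and 0.529, and 2.11 and 2.23 CPM. The difference between genotypes did not pass the test at day 0 (-0.40, FDR = 0.826, SE 0.42), and KO was lower at day 2 (-2.70, FDR = 0.00274, SE 0.38) and day 10 (-3.56, FDR = 0.000161, SE 0.33). These Irf7 values rest on few reads, with pooled counts of 22 in WT at day 0, 15 in KO at day 0 and 14 in KO at day 2. Irf7 still rose in KO by day 10 (2.54, FDR = 0.00288, SE 0.38).

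Stat2, a subunit of the complex that reads interferon signals, showed the A and B split: it was at 14.4 and 26.2 CPM on day 0, 24.9 and 43.9 on day 2, then 68.3 and 67.3 on day 10 in WT. Its KO values of 15.6 and 26.8, 21.1 and 36.3, and 21.8 and 20.6 CPM overlapped WT until day 2 and lay below it at day 10 (-1.68, FDR = 0.0139, SE 0.41). The day 10 call was lost without any 1 of the 4 day 10 libraries, and the rise in WT (1.74, FDR = 0.011, SE 0.41) once WT day 0 A or WT day 10 A was left out. Irf9, its DNA-binding partner, was at 15.2 and 18.6 CPM on day 0, 22.4 and 26.6 on day 2, then 37.1 and 40.4 on day 10 in WT. The KO levels of 14.6 and 16.9, 21.04 and 26.5, and 20.02 and 24.8 CPM ended lower at day 10 (-0.79, FDR = 0.0167, SE 0.20), again a call that needed all 4 day 10 libraries.

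Irf1, a factor that acts on many of the same promoters, was lower in KO on all 3 days. WT had 58.6 and 56.8 CPM on day 0, 81.2 and 71.7 on day 2, then 91.5 and 72.8 on day 10. KO had 32.8 and 29.4, 20.4 and 22.6, and 31 and 27.6 CPM, under every WT library, with log2 fold changes at day 0 (-0.89, FDR = 0.012, SE 0.17), day 2 (-1.83, FDR = 0.000467, SE 0.17) and day 10 (-1.49, FDR = 0.000377, SE 0.17). The day 0 call was lost without any 1 of its 4 libraries. The small rise in WT (0.51, FDR = 0.0417, SE 0.17) lost its call in 10 of the 12 cases with 1 library left out. Irf3, the factor that the sensors switch on by phosphorylation, went the other way: from 58.2 and 57 CPM at day 0 it fell in WT to 34.4 and 32.5 at day 10 (-0.78, FDR = 0.00342, SE 0.15). At 50.6 and 41.6 CPM, the KO libraries of day 10 were higher than WT (0.46, FDR = 0.0396, SE 0.15), a call that was lost with DESeq2's size factors, with library totals, with no low-count filter and without KO day 10 A, any 1 WT day 10 library or any 1 library of WT days 0 and 2.

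The OAS enzymes make oligoadenylates that switch on RNase L, and the OAS-like proteins are their relatives. Of the 8 members, 6 rose in WT by day 10 and 7 were lower in KO at that day. Oasl2 had the highest mean of the family per transcript length in WT at day 10 (79.9 and 54.1 TPM), going through 0.1995 and 0 CPM on day 0, 1.08 and 0.726 on day 2, then 124 and 86.1 on day 10. In KO it went through 0 and 0.0494, 0.103 and 0.199, and 1.798 and 1.08 CPM. In WT the change from day 0 to day 10 was a log2 fold change of 9.83, FDR = 3.87e-05, SE 0.69, and in KO the 47 counts of day 10 against 1 of day 0 gave a ratio of 58.6 (95% counting interval from 10 to 2360). KO was lower at day 10 (log2 fold change -6.18, FDR = 0.000138, SE 0.55). Oasl1, its neighbour on chromosome 5, had 0 counts in all 4 day 0 libraries. By day 10 it reached 16.4 and 10.2 CPM in WT, which is at least 204-fold higher than the floor of 3 counts over the day 0 group, and 0.248 and 0.603 CPM in KO.

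Oas2, Oas3, Oas1c, Oas1g and Oas1a lie in a run on chromosome 5, each within 3 protein-coding places of the next. Oas2 was at 6.304 and 13.2 CPM on day 0, 1.92 and 3.58 on day 2, then 67.6 and 62.8 on day 10 in WT. KO held 0.3895 and 1.43, 0 and 0, and 0.6199 and 0.844 CPM, with 37 counts at day 0 and 0 at day 2, at least 10.4-fold lower at day 2, a call lost in 9 of the 12 cases with 1 library left out. KO was lower at day 0 (-3.41, FDR = 0.0129, SE 0.61), at day 2 (at least 32.1-fold lower) and at day 10 (-6.46, FDR = 0.000431, SE 0.68). The day 0 call was lost without KO day 0 A or WT day 0 B. Oas1g was near absent in KO, with 0 and 0.247, 0 and 0, and 0.806 and 0.362 CPM. WT held 5.43 and 6.98 CPM on day 0, 4.93 and 5.71 on day 2, then 16.8 and 14.7 on day 10. That was at least 61.5-fold lower in KO at day 2, and the log2 fold change was -5.58, FDR = 0.00311, SE 0.72 at day 0 and -4.74, FDR = 0.00102, SE 0.61 at day 10. At these depths 3 counts in a library equal 0.120 to 0.199 CPM.

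Oas1a, a paralog near Oas1g, was also lower in KO on all 3 days but kept a measurable level. WT had 28.9 and 21.7 CPM on day 0, 24.6 and 20 on day 2, then 53.1 and 54.7 on day 10. KO had 8.62 and 5.13, 2.42 and 1.46, and 6.63 and 6.09 CPM. The difference was -1.88 at day 0, -3.51 at day 2 and -3.08 at day 10 on the log2 scale. In KO Oas1a fell by day 2 (-1.81, FDR = 0.0124, SE 0.33), a call lost without KO day 0 A or KO day 2 B. In WT it rose by day 10 (1.09, FDR = 0.0186, SE 0.29), a call lost once WT day 0 B or either WT day 10 library was left out. Expected counts were not whole for Oas1b in 13 libraries, for Oas1a in 11, for Oas1g in 9 and for Oas1c in 8, which does not show with which gene reads were shared. The counting could divide reads among these paralogs, so the split among the 4 genes is uncertain.

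Oas3 overlapped between genotypes at day 0. It was at 4.03 and 9.104 CPM on day 0, 3.796 and 6.71 on day 2, then 48.2 and 40.8 on day 10 in WT. KO libraries had 2.24 and 6.56, 1.54 and 3.71, and 2.79 and 2.35 CPM, and at day 10 KO was lower (-4.11, FDR = 0.00184, SE 0.66). Its WT rise (2.77, FDR = 0.00749, SE 0.61) lost its call without WT day 0 A. Oas1c moved in opposite directions in the genotypes. It was at 4.51 and 3.86 CPM on day 0, 3.15 and 2.27 on day 2, then 9.08 and 8.37 on day 10 in WT. KO went through 6.87 and 4.74, 2.26 and 2.38, and 2.23 and 2.83 CPM. Its rise in WT was 1.06, FDR = 0.0153, SE 0.27 and its fall in KO -1.19, FDR = 0.0224, SE 0.28; the WT call was lost without any 1 of its 4 libraries, and the KO call without KO day 0 A or any 1 KO day 10 library. Oas1b, at 1.24 to 8.81 CPM, was not called in any comparison.

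The 3 IFIT genes, which bind RNA with incomplete caps or hold back its translation, were highest in WT at day 10 among the pre-iPSC groups. By day 10 Ifit1 went in WT from 0 counts to 9.03 and 7.37 CPM, which is at least 125-fold higher than the floor of 3 counts over the group. In KO at day 10 it had 1 count in all against 289 in WT, a ratio of 0.0037 (95% counting interval from 9.33e-05 to 0.0208). Ifit3 had 76 counts in WT at day 10 and 1 in KO, a ratio of 0.0141 (95% counting interval from 0.000351 to 0.0807); its call was lost without KO day 10 B. Ifit2, next to Ifit3 on chromosome 19, was at 0.399 and 0.693 CPM on day 0, 0.345 and 0.454 on day 2, then 2.22 and 1.75 on day 10 in WT. In KO it was at 0.3895 and 0.247, 0.412 and 0.331, and 0.31 and 0.181 CPM (-2.99, FDR = 0.00148, SE 0.46 at day 10). Its WT rise, 1.87, FDR = 0.00616, SE 0.39, lost its call once WT day 0 A or WT day 10 A was left out.

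All 5 genes of ISG15 tagging were lower in KO at day 10, and 4 rose in WT. Isg15, the ubiquitin-like tag itself, was at 0.798 and 0.891 CPM on day 0, 2.12 and 1.41 on day 2, then 36.7 and 37.5 on day 10 in WT. KO libraries held 0.195 and 0.592, 0.103 and 0.397, and 0.806 and 0.965 CPM, under every WT library of the same day. At day 0 the difference did not pass the test (-1.09, FDR = 0.335, SE 0.54), and at day 10 it was -5.38, FDR = 0.000152, SE 0.49. Uba7, the enzyme that activates ISG15, was at 1.08 and 1.48 CPM on day 0, 2.51 and 3.22 on day 2, then 13.2 and 8.74 on day 10 in WT. The KO group had 1 count at day 0, a ratio of 0.0195 (95% counting interval from 0.000485 to 0.113) of KO to WT, and 1.05 and 0.904 CPM at day 10. Uba7 rose within KO by day 10, a ratio of 39.9 (95% counting interval from 6.67 to 1620).

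Usp18 removes ISG15 and dampens the interferon receptor. It had 0 counts in WT at day 0 and 17.1 and 11.7 CPM by day 10, which is at least 221-fold higher than the floor. In KO it stayed at 0.0487 and 0, 0 and 0.0662, and 0.31 and 0.121 CPM (-6.03, FDR = 0.000503, SE 0.66 against WT at day 10). Trim25, a ubiquitin ligase that acts on RIG-I, was at 65.9 and 82.1 CPM on day 0, 70.05 and 81.9 on day 2, then 322 and 304 on day 10 in WT. KO libraries held 37.5 and 43.4, 44.6 and 46.7, and 78.5 and 75.4 CPM. KO at day 10 was at the WT level of day 0 and lower than WT at day 10 (log2 fold change -2.02, FDR = 0.000126, SE 0.17). The lower level at day 0 (-0.87, FDR = 0.0141, SE 0.17) lost its call without KO day 0 A, KO day 0 B or WT day 0 B. That at day 2 lost its call in 8 of the 12 cases with 1 library left out. Herc6, the mouse ligase for ISG15, was not called between days in WT, where it was at 10.4 and 14 CPM on day 0, 6.21 and 8.94 on day 2, then 15.9 and 11.1 on day 10. KO had 8.42 and 11.99, 10.8 and 18.5, and 4.83 and 5.67 CPM and was lower at day 10 (-1.36, FDR = 0.0177, SE 0.36), a call lost without KO day 10 A, KO day 10 B or WT day 10 A.

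The 4 GTPases all rose in WT and were all lower in KO at day 10. Gbp2 encodes a guanylate-binding protein and lies near Gbp3 on chromosome 3. WT held 16.1 and 11.6 CPM on day 0, 40.2 and 34.6 on day 2, then 91.4 and 61.3 on day 10. KO held 0.243 and 0.345, 1.03 and 1.39, and 7.997 and 7.17 CPM. KO was lower on all 3 days, with log2 fold changes of -5.53, -4.96 and -3.33 and FDR between 9.99e-05 and 0.000136. Gbp2 rose in both genotypes by day 10, by 2.46, FDR = 0.000223, SE 0.27 in WT and 4.66, FDR = 0.000109, SE 0.35 in KO. Gbp3 was at 1.44 and 1.09 CPM on day 0, 2.27 and 2.99 on day 2, then 20.5 and 17.1 on day 10 in WT. In KO it stayed at 0.0974 and 0, 0.0515 and 0.199, and 0.248 and 0.301 CPM, and its day 10 difference was -6.06, FDR = 0.000126, SE 0.52. At day 0, 2 counts in KO against 58 in WT gave a ratio of 0.0383 (95% counting interval from 0.00453 to 0.145). Unlike Gbp2, Gbp3 did not pass the test for a rise in KO, where 9 counts at day 10 against 2 at day 0 gave a ratio of 5.61 (95% counting interval from 1.16 to 53.4).

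Mx1 and Mx2 encode dynamin-like antiviral GTPases. Mx2 was at 0.1596 and 0 CPM on day 0, 0.0493 and 0 on day 2, then 7.07 and 4.497 on day 10 in WT. KO had 0.0487 and 0.0494, 0.103 and 0, and 0.434 and 0.241 CPM (-4.08, FDR = 0.00258, SE 0.70 at day 10). Mx1 was at 0.399 and 0.841 CPM on day 0, 0.345 and 0.726 on day 2, then 3.43 and 3.75 on day 10 in WT. KO had 0.3895 and 1.19, 0.257 and 0.662, and 0.248 and 0.663 CPM, with a day 10 difference of -2.95, FDR = 0.0112, SE 0.69 whose call was lost without KO day 10 A or any 1 WT day 10 library. Mx1 and Mx2, and Gbp2 and Gbp3, are paralogs whose reads the counting could divide, so their split is uncertain. The rise of Mx1 in WT (2.54, FDR = 0.015, SE 0.65) lost its call without WT day 0 A or any 1 WT day 10 library.

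**Figure D3:**
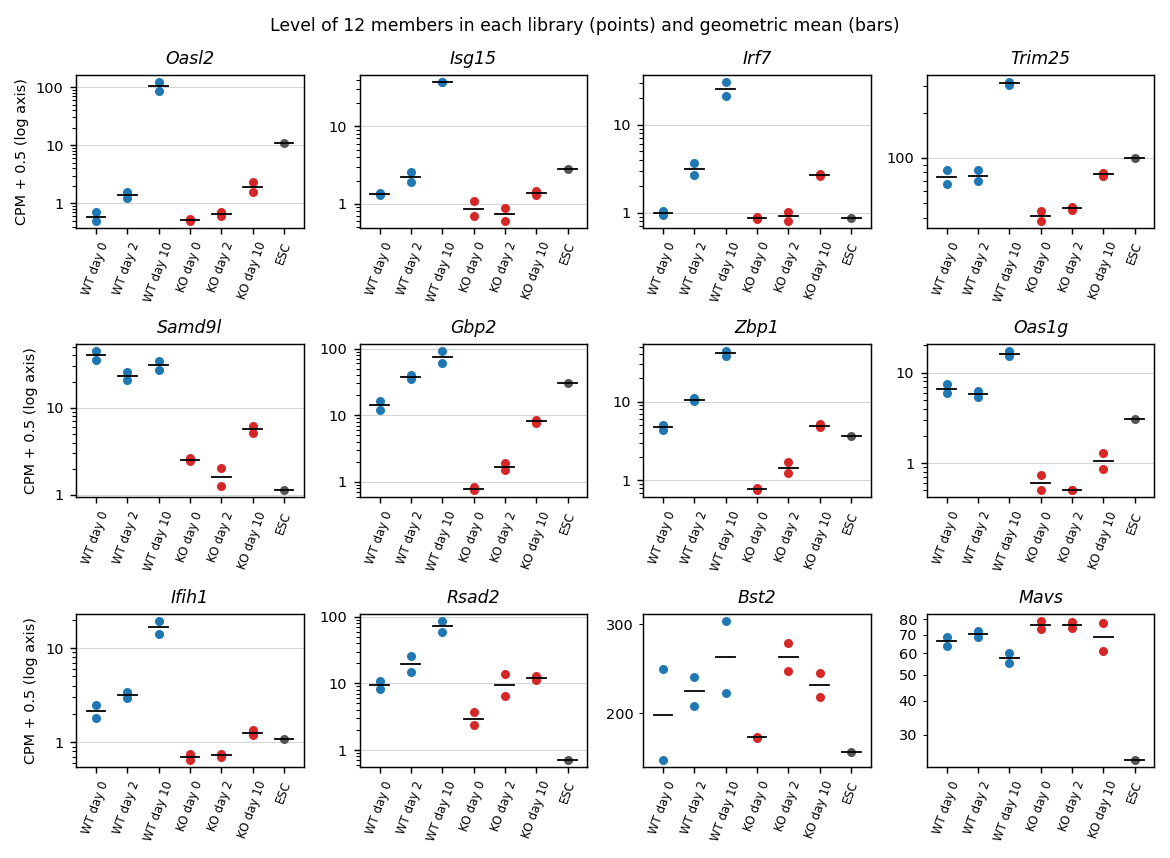
CPM + 0.5 on log axes for 12 members in each library (points; blue WT, red KO, grey ESC) with geometric means of each group (bars). Oasl2, Isg15, Irf7 and Trim25 rise in WT at day 10; Samd9l, Gbp2, Zbp1, Oas1g and Ifih1 are lower in KO on every day; Bst2 and Mavs were not called in any comparison.

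The 4 membrane genes stayed without a call. Bst2, whose product tethers budding virus, and Ifitm1, Ifitm2 and Ifitm3, whose products hinder viral fusion, were not called in any of the 11 comparisons. They were also the most abundant members per transcript length, with 977 and 895 TPM for Ifitm2, 1003 and 702 for Ifitm3, 851 and 595 for Bst2 and 458 and 527 for Ifitm1 in WT at day 10. These 4 genes made up 70.7 to 94.0% of the summed member TPM of the pre-iPSC libraries. The other 43 members together went from 357 and 542 TPM at day 0 to 1350 and 1130 at day 10 in WT, and from 229 and 334 to 323 and 306 in KO. Bst2 ranged over 161 to 305 CPM in the 12 pre-iPSC libraries, and the log2 difference of KO from WT was -0.20, FDR = 0.601, SE 0.24 at day 10. Ifitm1 varied within groups, at 470.3 and 186 CPM in WT at day 0. The 3 Ifitm genes are neighbouring paralogs on chromosome 7 among which the counting could divide reads, so the split among them is uncertain.

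Rsad2, which encodes viperin, a maker of a chain-terminating nucleotide, and Cmpk2, a nucleotide kinase gene beside it on chromosome 12, both rose in both genotypes. Rsad2 went in WT through 7.66 and 10.3 CPM on day 0, 14.5 and 25.5 on day 2, then 87.1 and 57.96 on day 10. KO went through 1.899 and 3.16, 5.97 and 13.2, and 12.4 and 10.6 CPM. The rise by day 10 was 3.01, FDR = 0.00123, SE 0.46 in WT and 2.18, FDR = 0.015, SE 0.47 in KO, and the KO call was lost without KO day 0 A or any 1 KO day 10 library. Cmpk2 was at 2.83 and 3.27 CPM on day 0, 4.44 and 3.31 on day 2, then 10.7 and 12.1 on day 10 in WT. KO held 1.22 and 1.19, 4.22 and 2.98, and 3.41 and 4.58 CPM. Its rise was 1.90, FDR = 0.000979, SE 0.28 in WT and 1.73, FDR = 0.00521, SE 0.30 in KO. At day 10 KO was lower for both genes, with log2 fold changes of -2.66 for Rsad2 and -1.51 for Cmpk2. At day 0 their lower levels in KO (FDR = 0.0450 for Rsad2 and 0.0248 for Cmpk2) lost the call without any 1 of the 4 day 0 or 2 WT day 10 libraries, and for Rsad2 also with library totals or without any 1 library of KO day 10 or WT day 2.

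Parp9, Dtx3l and Parp14 lie together on chromosome 16; PARP9 and DTX3L form a complex, and PARP14 adds ADP-ribose to proteins. All 3 rose in WT and were lower in KO at day 10. Parp14 was at 6.58 and 8.91 CPM on day 0, 12.4 and 13.3 on day 2, then 49.5 and 37.9 on day 10 in WT. KO was at 2.19 and 3.11, 1.39 and 1.79, and 5.76 and 4.82 CPM, lower at day 0 (-1.54, FDR = 0.00896, SE 0.27) and at day 10 (-3.04, FDR = 0.000151, SE 0.27). The day 0 call was lost without KO day 0 A or WT day 0 B. Parp9 was at 36.03 and 36.6 CPM on day 0, 44.8 and 45.6 on day 2, then 80.98 and 60.96 on day 10 in WT. KO held 23.4 and 21.5, 21.8 and 18.4, and 26.6 and 28.4 CPM (-1.37, FDR = 0.000683, SE 0.18 at day 10). The lower level of Parp9 in KO at day 0 lost its call with no low-count filter and in 8 of the 12 cases with 1 library left out. Dtx3l held 31.2 and 35.3 CPM on day 0, 36.5 and 37.8 on day 2, then 75.9 and 58.3 on day 10 in WT. In KO it held 22.7 and 23.7, 18.3 and 16.6, and 23.4 and 21.5 CPM, with a day 10 difference of -1.58, FDR = 0.000327, SE 0.17.

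Of the 6 remaining members, Ifi44, Rtp4, Lgals3bp and Xaf1 rose in WT, and all but Ifi35 were lower in KO at day 10. Rtp4, a transmembrane protein gene, had 3 counts in WT at day 0 and 827 at day 10, a ratio of 357 (95% counting interval from 122 to 1730). In KO it was at 0.146 and 0, 0.257 and 0.463, and 0.682 and 0.482 CPM (-5.32, FDR = 0.000327, SE 0.58 against WT at day 10). Lgals3bp, which encodes a secreted glycoprotein, was at 4.03 and 7.87 CPM on day 0, 3.599 and 6.58 on day 2, then 63.4 and 53.4 on day 10 in WT. KO held 0.876 and 1.58, 0.309 and 1.46, and 2.23 and 2.11 CPM (-4.75, FDR = 0.000715, SE 0.62 at day 10). Ifi44 had 142 counts in WT at day 10 and 2 in KO, a ratio of 0.015 (95% counting interval from 0.0018 to 0.0554).

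Xaf1, which encodes an interferon-induced binder of an apoptosis inhibitor, was lower in KO on all 3 days. WT was at 34.4 and 31.5 CPM on day 0, 35.05 and 32.2 on day 2, then 66.2 and 55.96 on day 10. KO was at 11.6 and 9.67, 10.03 and 8.21, and 19.9 and 20.7 CPM. The difference was -1.63, -1.88 and -1.59 on the log2 scale at the 3 days, and the rise by day 10 was 0.89, FDR = 0.00419, SE 0.17 in WT and 0.93, FDR = 0.00867, SE 0.18 in KO. Samd9l, a growth-restraining gene, was not called between days in WT, where it was at 35.2 and 44.5 CPM on day 0, 20.5 and 25.4 on day 2, then 34.2 and 26.98 on day 10. KO was at 1.95 and 2.12, 0.772 and 1.52, and 5.703 and 4.64 CPM, far under every WT library at day 0 (-4.29, FDR = 0.000188, SE 0.32), day 2 (-4.34, FDR = 0.0002, SE 0.34) and day 10 (-2.56, FDR = 0.000401, SE 0.29). Ifi35, at 9.43 to 17.9 CPM in the 12 pre-iPSC libraries, was not called in any comparison.

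Whether the day 10 change differed between genotypes was tested directly, as the interaction of genotype and day. For 8 members the change was lower in KO and for 2 it was higher, beside 6.20% and 6.35% of all genes, and 24 had an unadjusted p under 0.05. Lower changes were called for Isg15 (interaction log2 -4.29, FDR = 0.00671, SE 0.73), Oas3 (-3.54, FDR = 0.0293, SE 0.86), Dhx58 (-3.48, FDR = 0.0183, SE 0.76), Irf7 (-3.15, FDR = 0.00673, SE 0.54), Oas1c (-2.25, FDR = 0.00709, SE 0.39), Parp14 (-1.50, FDR = 0.0318, SE 0.37), Trim25 (-1.15, FDR = 0.0149, SE 0.24) and Dtx3l (-1.06, FDR = 0.0215, SE 0.24). The change was higher in KO for Gbp2 (2.20, FDR = 0.0128, SE 0.44) and Samd9l (1.72, FDR = 0.0264, SE 0.41). Both began much lower in KO at day 0, and Samd9l rose only in the KO test (1.34, FDR = 0.0189, SE 0.30, against -0.38, FDR = 0.334, SE 0.27 in WT); the KO call was lost without any 1 of its 4 libraries and in the fit to those 4 alone. The number called was 4 or 5 without KO day 0 B, KO day 10 A, KO day 10 B, WT day 0 A or WT day 10 A. It was 6 once WT day 10 B was left out, 19 with DESeq2, and 25 (22 lower and 3 higher) with the block for days 0 and 2. Leaving out 1 library ended the call of Gbp2 and Isg15 in 1 of 12 cases each, of Dhx58, Oas3 and Trim25 in 6, of Dtx3l and Samd9l in 7 and of Parp14 in 9. Oasl1 and Ifit1, with 0 counts at day 0 in both genotypes, allow no estimate of the interaction. For the interaction at day 2, edgeR called 0 members (0.126% of all genes higher and 0.0698% lower). Of the members 8 had an unadjusted p under 0.05, DESeq2 called 2, and the block for days 0 and 2 gave 8. Over all genes, calls for the day 2 interaction were 28 in the main fit, 223 with DESeq2 and 1109 with the block. For the day 10 interaction they were 1798, 2746 and 6388.

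**Figure D4:**
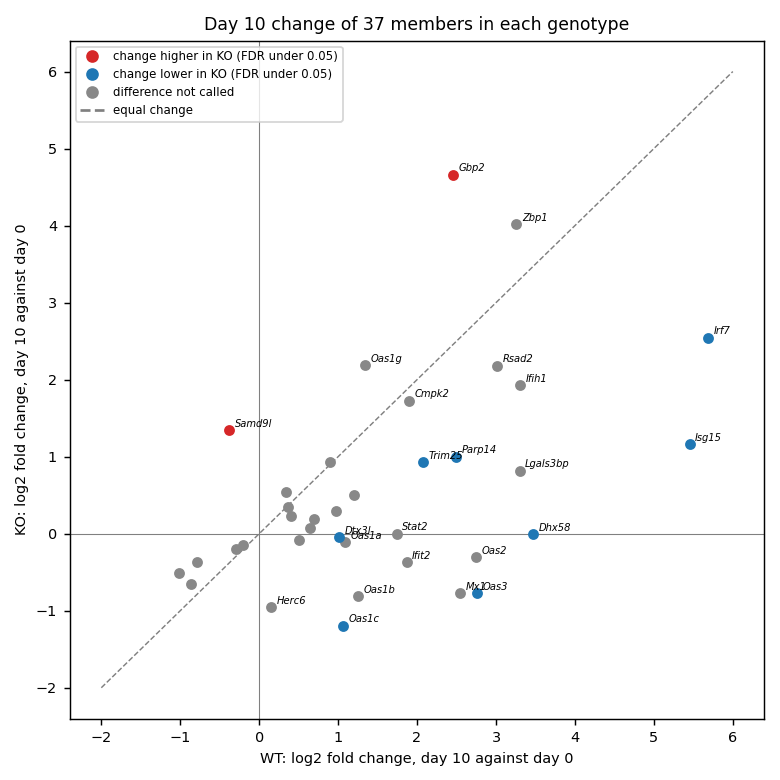
Log2 fold change from day 0 to day 10 in WT (x axis) and KO (y axis) for the 37 members with more than 3 counts in each of the 4 groups; the dashed line marks an equal change. Blue points (8) had a lower change in KO and red points (2) a higher one at FDR under 0.05, and labels are given for called or far-lying genes.

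The ESC library, which has no replicate and entered no test, lay under both WT day 10 libraries for 43 of the 47 members. This count, and that set beside KO below, was not made over all genes. A trait of the members and a general difference of this single library therefore cannot be told apart. Over all members the median ratio of the WT day 10 mean to the ESC level was 4.60, and for 16 members it exceeded 10. Rsad2 was at 0.208 CPM in ESCs, against 87.1 and 57.96 in WT at day 10. Rtp4 was at 0.261 CPM, Irf7 at 0.365 and Samd9l at 0.626, where WT at day 10 was 90.2, 70 and 48.9 times as high. Ifit2, at 4.07 CPM, Ifitm1, at 204, and Irf3, at 38.2, were above both WT day 10 libraries, and Ifitm2 lay between them. Set beside KO at day 10, the ESC level was above both libraries for 21 members, below both for 24 and between them for 2. Among the 21 were Oasl2 at 10.6 CPM, Oas3 at 12.1, Gbp2 at 29.6 and Gbp3 at 4.64. The median ratio of KO day 10 to ESC was 1.13.

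**Figure D5:**
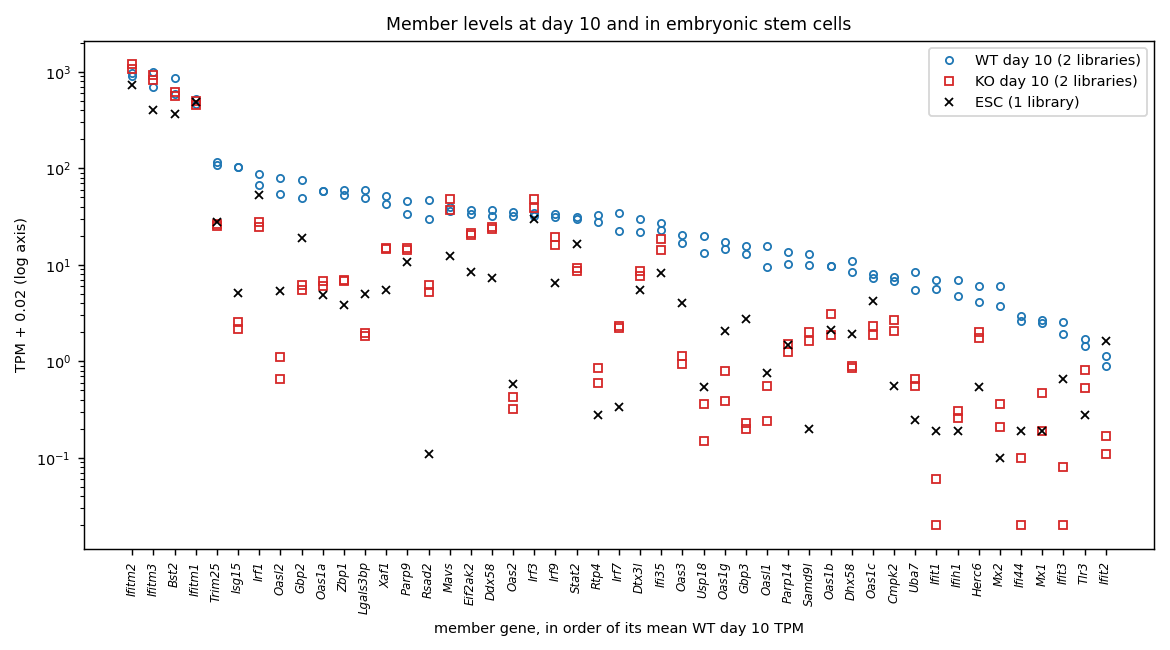
TPM + 0.02 on a log axis for the 47 members, in order of their mean in WT at day 10, with 2 libraries of WT day 10 (circles), 2 of KO day 10 (squares) and the ESC library (crosses). The 4 membrane genes lead in all 3 kinds of cell, and for most members below them both other groups lie under WT day 10.

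Genes of the pathway outside the set were read from a list of 49, of which 48 were in the files and 37 were tested. In WT, 16 of the 37 were higher and 6 lower at day 10 than at day 0, beside 21.0% and 13.1% of all genes. In KO against WT at day 10, 7 were higher and 14 lower, beside 12.4% and 19.9% of all genes. At day 0, 1 was higher and 5 were lower (2.69% and 5.59% of all genes), and at day 2, 2 were higher and 7 lower (4.29% and 6.16%). Of the 7 interferon ligand genes, 6 including Ifnb1 had 0 counts in all 13 libraries, and Il28a had 2 counts in WT at day 10 and 1 in the ESC library, below the floor of 3 counts. The receptor genes Ifnar1 and Ifnar2 were expressed and not called; Ifnar1 lay at 110.0 and 112 CPM in WT and 100.2 and 111 in KO at day 10. Socs1, a feedback inhibitor of the receptor kinases, was lower in KO at day 10 (-2.26, FDR = 0.000471, SE 0.27).

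Pathway genes lower in KO at day 10 also included the kinase gene Jak1, Il28ra, Unc93b1, Samhd1, the ISG15-conjugating Ube2l6, Trim21, Trim30a, Sp100 and the GTPase genes Igtp, Irgm1, Irgm2 and Iigp1. Irgm1 was at 42.5 and 45.8 CPM in WT and 5.76 and 8.38 in KO. Those higher in KO at day 10 were 7. The kinase genes Tbk1 and Ikbke, the adaptor genes Traf3 and Myd88, Irf2, the receptor gene Ifngr2 and the DNA-sensing adaptor gene Tmem173 (STING) made up this group. Tmem173 was at 14.1 and 19.3 CPM in WT and 59.6 and 60.3 in KO (1.85, FDR = 0.00506, SE 0.36). Myd88 was at 12.9 and 14.6 CPM in WT and 33.9 and 33.9 in KO (1.30, FDR = 0.00373, SE 0.24).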

How the data were processed

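Total RNA was sequenced single-end. The submitters' processing notes name Bowtie2, RSEM and mm9, with no versions. The deposited values are RSEM expected counts, in which a read that matches several genes is divided among them, and the deposited TPM, used here to compare levels between genes. Each expected count was rounded to a whole number. R 4.3.3 and edgeR 4.0.16 then tested all 14324 genes kept by filterByExpr (quasi-likelihood test, TMM factors, Benjamini-Hochberg adjustment, FDR under 0.05) in a single fit to 12 libraries in 6 groups, with 6 residual degrees of freedom. Standard errors (SE) are the absolute log2 fold change divided by the square root of the test's F statistic. They are approximate, most of all where a group is near 0 counts. Where a group held 0 counts, a fold is a bound at 3 counts over the group; with 1 to 3 counts, a ratio carries a 95% interval for counting error only. In each library 35 to 43.8% of expected counts lay over 0.005 from a whole number. Alternatives were DESeq2 1.42.0, its size factors, library totals, no low-count filter, the replicate letter as a block, only the libraries compared, and each library left out in turn. The fit was tested on simulated data. Values per library are given for members called in KO against WT at day 10 or with the largest WT change of their role, the rest as counts and ranges. The values of 1 pathway gene outside the set are not reported here. Members, lists and this rule were chosen with earlier results of these data known. Promoter sequences are RefSeq's, of build GRCm38.p6, not the build of the counts.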

Additional observations from a re-analysis of the deposited data

Results flagged for a closer look

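For 10 members the change from day 0 to day 10 differed between WT and KO in edgeR's test of the interaction. The log2 difference of the changes, KO minus WT, was -4.29 for Isg15, -3.54 for Oas3, -3.48 for Dhx58, -3.15 for Irf7, -2.25 for Oas1c, -1.50 for Parp14, -1.15 for Trim25 and -1.06 for Dtx3l. It was 2.20 for Gbp2 and 1.72 for Samd9l. Leaving out 1 library ended the call of Gbp2 (without KO day 0 A) and of Isg15 (without KO day 0 B) once each, of Dhx58, Oas3, Samd9l, Trim25, Dtx3l and Parp14 in 6 to 9 of 12 cases, and of Irf7 and Oas1c in none. Parp14 also lost its call with library totals and in a fit to the 8 libraries compared.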

How the results depend on the processing

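Of 3476 values of single called members under the alternatives, 0 reversed, 3098 kept their call and 378 lost it. The largest counts, WT day 10 against day 0 and KO against WT at day 10, stayed within 1.5 times under every alternative run. DESeq2 called 7 members for WT day 2 against day 0 and 16 for KO day 10 against day 2, beside 1455 and 1341 of all genes. It called 2 for the day 2 interaction and 19 for the day 10 interaction, beside 223 and 2746 of all genes. The replicate block gave 7 for WT day 2 against day 0 and 18 for the day 10 interaction, beside 1433 and 2942 of all genes. With the replicate block at days 0 and 2 only, calls over all 14324 genes rose as well, and are given in brackets. WT day 2 against day 0 had 22 (4318), and KO day 2 against day 0 had 17 (4225). KO against WT at day 2 had 29 (5252), the day 2 interaction 8 (1109) and the day 10 interaction 25 (6388). KO day 10 had 25 (7099) against day 0 and 24 (4895) against day 2. In this fit the levels of days 0 and 2 are those of library A, and those of day 10 are means of A and B. Counts of day 10 against an earlier day thus do not compare group means there. A minus B differences correlated at 0.872 to 0.915 between groups of days 0 and 2 and at -0.112 to 0.032 in pairs with a day 10 group, so the letters pair the libraries of days 0 and 2 in the data and not those of day 10, and no label says what they mark. With only the libraries compared, the counts were 0 for WT day 2 against day 0, 0 for KO day 2 against day 0, 6 for KO day 10 against day 0, 0 for KO day 10 against day 2, and 3 for KO against WT at day 0 and at day 2. Over all genes they were 119, 0, 1042, 0, 141 and 79, in that order. The fewer residual degrees of freedom of those fits are part of their construction. Leaving out 1 library gave 0 to 3 calls for WT day 2 against day 0, 28 to 35 for WT day 10 against day 0, 22 to 34 for WT day 10 against day 2, 1 to 6 for KO day 2 against day 0, 7 to 13 for KO day 10 against day 0, 2 to 9 for KO day 10 against day 2, 9 to 17, 15 to 20 and 32 to 40 for KO against WT at days 0, 2 and 10, and 4 to 11 for the day 10 interaction. A lone sample in a group was then assumed to vary like the other groups. The promoter share was 18.9% with TTCNNNGAA and 27.0% with the longer form of the core ending in CT. Among all genes with a promoter these shares were 9.05% and 0.37%. The cause of these differences was not tested. At 3 counts a library resolves 0.120 to 0.199 CPM, which limits the IFIT genes, Usp18, Oasl1, Mx2 and Ifi44 outside WT day 10.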
